A study of Mus musculus with 10 samples.

Results

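Potassium channel genes were taken as all genes with a symbol that starts with Kcn and a further letter, measured by probe sets that name that gene alone. They numbered 84 of the 18193 genes that probe sets name singly, with 90 probe sets on the 430A chip and 77 on the 430B chip, and 23 of them were on both chips. By symbol, 31 were voltage-gated pore subunits, 15 inward rectifiers, 12 two-pore channels and 11 members of the calcium-activated families. Another 12 were auxiliary subunits, and 3 were noncoding RNAs named after a channel gene. The samples were 3 medulloblastomas, malignant tumours of the cerebellum, and 2 pieces of adjacent cerebellum that the labels call wild type. RNA of these was hybridised to the Affymetrix 430A and 430B chips, which carry different probe sets, on 10 arrays in all. All samples came from mice carrying CAGGS-CreER, a tamoxifen-activated recombinase under a promoter active in most tissues, and R26-SmoM2, an activated Smoothened allele that drives Hedgehog signalling. The mice received tamoxifen, 1 mg for each 40 g, when they were 10 days old, so the animals that gave the cerebellum samples had the alleles and the drug too. The labels give neither the age at collection nor whether a tumour and a cerebellum sample shared a mouse. They call the samples biological replicates without naming separate animals, so p-values measure the spread between these samples.

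Potassium channels are membrane pores that let potassium leave or enter a cell and so set its resting potential and the shape and rate of its action potentials. Voltage-gated channels open on depolarisation, inward rectifiers and two-pore channels carry resting and receptor-controlled currents, and calcium-activated channels follow the calcium that enters with each spike. In the cerebellum, mature granule neurons, Purkinje cells, interneurons and glia each use a different set of them, and granule neurons gain their adult set as they leave division and mature.

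Members of all 5 protein families fell in medulloblastoma, and no gene rose by the probe set that represents it. Each gene is read by 1 probe set, from 430A where it has a tested one there, and fold changes are of log2(intensity + 16). Of the 84 genes, 64 passed the filter on low values and 38 of those did not pass the test. The other 26 of 64 were lower in medulloblastoma, where 16% of all genes tested were lower, and none was higher, where 10.7% of all genes were (limma, adjusted p below 0.05, Benjamini-Hochberg over each chip). At an unadjusted p under 0.05, 2 were higher, the two-pore gene Kcnk7 and the noncoding RNA Kcnq1ot1. The median log2 fold change of medulloblastoma over cerebellum was -0.30 over the 64 genes and -0.05 over all genes tested. Of the 64, 19 were lower by at least 1 log2 unit, as were 8.41% of all genes tested. In the tumours the mean intensity of the 26 lower genes was between 4.0% and 63.0% of the cerebellum mean. The median was 20.0%, and 6 of the 26 were under 10%. With no filter, 24 of the 84 genes were lower, and 12% of all genes. RNA came from pieces of tissue, so fewer cells of a type and less RNA per cell cannot be told apart.

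Below are the 250 bases before the RefSeq start (mouse build GRCm38.p6) of the gene with the largest fall in each pore family. Kcnj9 is added because it lies next to Kcnj10 on chromosome 1, with 11888 bases between their starts and opposite strands. These promoter windows are shown because their genes fell together. Letters run 5′ to 3′ on the gene's strand. Capitals mark the GC box letters GGGCGG or their reverse complement CCGCCC and, in Kcnj9, the TATA box letters TATAAA. These are matches of letters only, and the TATAAA of Kcnj9 lies nearer the upstream end of its window than the RefSeq start. The windows are Kcnd2 (chr6:21215096-21215345, plus strand), Kcnj10 (chr1:172340960-172341209, plus), Kcnj9 (chr1:172329323-172329572, minus), Kcnk1 (chr8:125994852-125995101, plus) and Kcnma1 (chr14:24004206-24004455, minus).
Kcnd2: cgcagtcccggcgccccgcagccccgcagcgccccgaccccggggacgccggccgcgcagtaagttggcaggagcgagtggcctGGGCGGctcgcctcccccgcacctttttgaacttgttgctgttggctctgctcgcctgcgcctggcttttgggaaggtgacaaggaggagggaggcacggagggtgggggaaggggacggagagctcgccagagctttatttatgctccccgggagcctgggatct
Kcnj10: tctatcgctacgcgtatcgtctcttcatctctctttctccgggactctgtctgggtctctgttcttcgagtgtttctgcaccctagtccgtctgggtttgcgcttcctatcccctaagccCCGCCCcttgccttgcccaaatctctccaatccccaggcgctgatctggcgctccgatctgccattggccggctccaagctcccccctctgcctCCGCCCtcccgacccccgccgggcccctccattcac
Kcnj9: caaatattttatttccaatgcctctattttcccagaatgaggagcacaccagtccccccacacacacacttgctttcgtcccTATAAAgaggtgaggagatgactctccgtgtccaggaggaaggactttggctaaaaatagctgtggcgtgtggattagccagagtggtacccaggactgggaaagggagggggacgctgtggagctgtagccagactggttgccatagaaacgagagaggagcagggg
Kcnk1: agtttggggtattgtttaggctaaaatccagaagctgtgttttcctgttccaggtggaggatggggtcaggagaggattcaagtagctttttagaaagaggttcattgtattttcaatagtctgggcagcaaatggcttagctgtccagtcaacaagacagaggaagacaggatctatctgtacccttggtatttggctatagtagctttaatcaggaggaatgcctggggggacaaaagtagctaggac
Kcnma1: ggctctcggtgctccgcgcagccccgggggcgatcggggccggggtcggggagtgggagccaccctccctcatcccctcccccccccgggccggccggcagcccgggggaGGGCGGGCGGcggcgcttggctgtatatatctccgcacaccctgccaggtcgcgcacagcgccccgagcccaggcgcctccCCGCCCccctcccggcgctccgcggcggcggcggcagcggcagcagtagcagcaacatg
The 5 windows differ widely. Kcnma1 had a GC content of 79.2%, 31 CpG dinucleotides and 3 GC boxes, of which 2 overlap. Kcnk1 had a GC content of 44.4% and neither a CpG nor any of the motifs searched. RefSeq windows were found for 64 of the 84 genes, 89 windows in all because some genes have several starts. A GC box on either strand was in 39.3% of the windows of the genes that fell, in 42.2% of those of the genes not past the test and in 32.7% of all RefSeq windows. The E box CAGCTG, which reads the same on both strands, was in 21.4%, 28.9% and 13.0% of the same 3 sets of windows. TATAAA on either strand was in 7.14%, 2.22% and 12.4% of them, which is 2 of 28, 1 of 45 and 4063 of 32851 windows. The 28 windows came from 20 of the genes that fell and the 45 from 30 genes not past the test. The GLI site GACCACCCA and the partial site TTCAGCACC of the neuronal repressor REST, searched on both strands, were in none of the 89 windows and in 0.225% and 0.301% of all windows. The motif counts are descriptions of these letters only.

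Before the values by family, some facts of the arrays bear on all of them. Median intensity by array was 33.3 to 35.9 for 430A and 22.5 to 24.0 for 430B. Log2 values of a tumour and a cerebellum sample correlated over probe sets with r from 0.794 to 0.859, those of 2 tumours with r from 0.929 to 0.981, and those of the cerebellum samples with r of 0.967 and 0.981. Over the 100 probe sets that both chips hold, the tumour numbered 1 on 430A deviated from the tumour mean most like tumour 2 of 430B (r = 0.83), tumour 2 like tumour 3 (r = 0.862) and tumour 3 like tumour 1 (r = 0.729). With the tumour of its own number, r was 0.215, -0.684 and -0.520. Tumours are therefore not joined by number across the chips, and each chip is described on its own.

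The tissue also differed in its markers. The summed intensities below cover only the markers represented on 430A. These were 10 of granule neurons, 10 of Bergmann glia and astrocytes, 6 of myelin, 5 of interneurons and 3 of choroid plexus. In the other cell type lists they were all the tested markers. All 13 tested markers of mature granule neurons fell, with a summed 430A intensity between 1031 and 1435 in tumours and between 12220 and 13890 in cerebellum. So did all 10 of Purkinje cells (280 to 564 in tumours, 15480 to 19810 in cerebellum), 8 of 11 of Bergmann glia and astrocytes (1229 to 2170 in tumours, 8701 to 10120 in cerebellum), 6 of 8 of myelin (191 to 349 in tumours, 3855 to 4785 in cerebellum) and 5 of 7 of GABAergic interneurons (171 to 200 in tumours, 1222 to 1678 in cerebellum), with none higher. All 10 markers of granule neuron precursors and dividing cells rose (4856 to 6082 in tumours, 249 to 537 in cerebellum). Of 9 microglia and macrophage markers 5 rose and none fell (1005 to 1243 in tumours, 429 to 501 in cerebellum). Of 8 endothelial and pericyte markers 2 fell (430 to 471 in tumours, 484 to 562 in cerebellum). Of 4 choroid plexus markers Otx2 rose and Ttr fell, with sums of 131 to 164 in tumours and 98.4 to 118 in cerebellum. Otx2 alone made that sum higher in tumours, with means of 81.8 in tumours and 11.59 in cerebellum. The means of Ttr and Folr1 were lower in tumours (23.0 and 37.5) than in cerebellum (54.95 and 41.47). Some markers had a mean under the filter level in 1 tissue and passed the filter through the other alone. Gabrd, Grin2c, Cbln3, Slc1a6, Ppp1r17, Mobp, Ermn and Lgi2 passed through cerebellum, and Gli1, Cd68 and Otx2 through the tumours. The part that these shifts in markers have in the channel results was not tested.

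**Figure D1:**
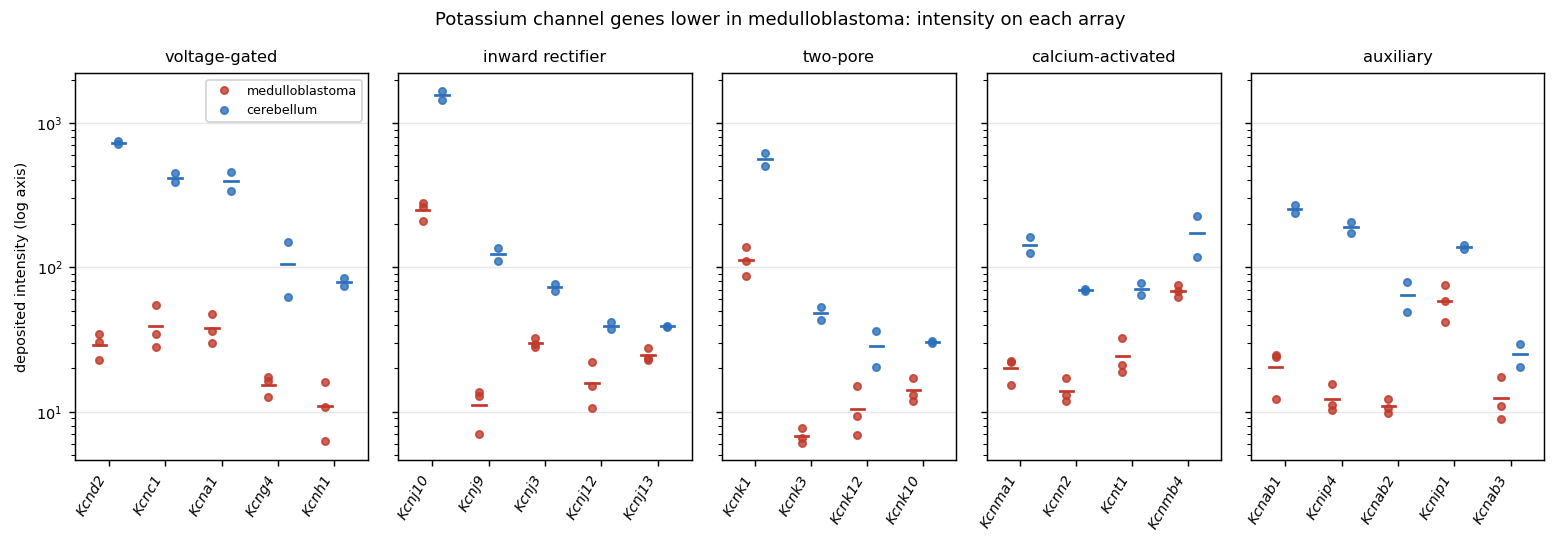
Deposited intensity on a log axis of the genes with the largest falls in each family, 1 probe set per gene on the chip that holds it. Points are arrays, 3 medulloblastomas (red) left of 2 cerebellum samples (blue), and bars are means; in each gene shown all tumour points lie below both cerebellum points.

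Voltage-gated subunits held the largest fall, in Kcnd2, which carries the fast A-type current of granule neurons. Kcnd2 had intensities of 34.5, 22.7 and 30.2 in tumours, against 712 and 745 in cerebellum. The groups were far apart and each was tight, and the log2 fold change was -4.05 ± 0.20 (SE, adjusted p = 3.82e-07 in limma). Its 2 other tested probe sets gave -3.49 and -3.47. Its relative Kcnd3, measured on 430B, had 101, 96.5 and 70.1 in tumours and 246 and 263 in cerebellum, a log2 fold change of -1.37 ± 0.22. Dimmer probe sets of Kcnd3 on 430B gave less, -0.63 ± 0.14 (adjusted p = 0.0125) and -0.34 ± 0.14 (adjusted p = 0.129). Kcnd1 did not pass (0.28 ± 0.16, adjusted p = 0.225).

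The partners that assemble with these A-type channels were measured too. Kcnip4, a calcium-binding subunit of the A-type channel, had 10.2, 11.1 and 15.5 in tumours, against 174 and 206 in cerebellum. This is a log2 fold change of -2.87 ± 0.16 (adjusted p = 8.11e-07), which was -2.56 and -3.51 from its other probe sets, the second on 430B. Kcnip1, of the same family, had 75.8, 58.9 and 41.9 in tumours and 135 and 142 in cerebellum (-1.07 ± 0.21). Another of its probe sets gave -1.64, while its other 2 probe sets did not pass. Kcnip3, with 45.7, 39.3 and 40.2 in tumours and 53.0 and 57.4 in cerebellum (-0.30 ± 0.15, adjusted p = 0.167), and Kcnip2 (0.12 ± 0.15, adjusted p = 0.608) did not pass. Beside the Kcn genes, Dpp10 and Dpp6, transmembrane proteins that join the A-type complex and speed its gating, fell by 3.02 and 2.87 on the log2 scale. Dpp10 had 23.6, 19.0 and 19.8 in tumours and 290 and 275 in cerebellum, and Dpp6 had 19.6, 13.2 and 14.2 in tumours and 193 and 237 in cerebellum. Dpp6 passed the filter on low values through cerebellum alone.

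Of 6 tested Kcna genes, Kcna1 and Kcna2 fell. Kcna1, a low-threshold channel of axons and of basket cell terminals on Purkinje cells, had 36.1, 47.8 and 29.7 in tumours, against 336 and 458 in cerebellum (-2.94 ± 0.22, adjusted p = 3.06e-06). On 430B, 2 probe sets of Kcna1 gave -3.36 and another, at 12.4, 14.4 and 10.7 in tumours and 15.6 and 18.3 in cerebellum, gave -0.21 ± 0.14 (adjusted p = 0.391). Kcna2, its usual partner, had 9.72, 16.5 and 15.1 in tumours and 35.9 and 57.0 in cerebellum on 430A, a log2 fold change of -1.06 ± 0.18. On 430B the fall of Kcna2 was -3.16 ± 0.18 and -3.11 ± 0.19 from 2 probe sets, and another did not pass, at 0.05 ± 0.16 (adjusted p = 0.881). The brightest had 28.6, 36.4 and 29.1 in tumours and 399 and 414 in cerebellum. With the brightest probe set in place of the one on 430A, Kcna2 therefore changed by -3.16. Kcna6 passed on 430B only, with 7.03, 15.7 and 15.1 in tumours and 76.4 and 96.2 in cerebellum (-1.85 ± 0.18, adjusted p = 6.39e-05). Its 430A probe set had 24.0, 39.9 and 34 in tumours and 44.1 and 59.7 in cerebellum (-0.48 ± 0.18, adjusted p = 0.0692), with -0.59 (adjusted p = 0.0188) without medulloblastoma 2 and -0.51 (adjusted p = 0.0265) with the replicate number as a block. Kcna3 (-0.17), Kcna4 (-0.32) and Kcna7 (0.17) did not pass, and Kcna5 was left out by the filter.

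The cytoplasmic beta subunits that bind these channels all fell. Kcnab1, which gives them inactivation, had 24.5, 23.9 and 12.3 in tumours, against 238 and 271 in cerebellum, with a log2 fold change of -2.92 ± 0.20 (adjusted p = 1.97e-06). Kcnab2 had 12.3, 10.6 and 9.86 in tumours, against 49.3 and 79.4 in cerebellum (-1.55 ± 0.17, adjusted p = 4.89e-05). Kcnab3 was closer to the limit of the test, with 10.9, 17.3 and 8.85 in tumours and 20.3 and 29.6 in cerebellum (-0.53 ± 0.17, adjusted p = 0.033). It had adjusted p = 0.1 both without medulloblastoma 1 and without medulloblastoma 3, with fold changes of -0.50 and -0.44, and 0.0501 with the replicate number as a block. Of all 12 auxiliary genes, 8 were tested and 5 fell, with a median of -0.80. The 4 left out by the filter were the small single-span subunits Kcne1, Kcne2, Kcne3 and Kcne4, and their relative Kcne1l did not pass (0.06).

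The other voltage-gated genes that fell belong to the Kcnc, Kcnh and Kcng groups. Kcnc1, whose channel repolarises fast-firing neurons, had 28.2, 54.5 and 34.6 in tumours, against 388 and 447 in cerebellum (-3.00 ± 0.23, adjusted p = 3.37e-06). Its 3 probe sets on 430B gave -3.75, -0.55 and 0.13, and only the first of them passed. Kcnh1, an ether-à-go-go channel, had 6.31, 16 and 10.8 in tumours and 73.9 and 83.9 in cerebellum (-1.83 ± 0.17). Kcng4, a silent subunit that modifies other voltage-gated channels, had 12.6, 17.3 and 16.4 in tumours. Its 2 cerebellum samples differed, at 62.3 and 149, yet both lay above all tumours (-1.86 ± 0.26, adjusted p = 7.92e-04). Kcnh3, of the same ether-à-go-go group, had 59.1, 52.7 and 38.4 in tumours and 94.2 and 137 in cerebellum on 430A (-0.99 ± 0.21) and no call on 430B, where its brightest probe set gave 0.53 ± 0.25 (adjusted p = 0.192). Without cerebellum 2 the 430A value was -0.75 with adjusted p = 0.0694. In all, 8 of 24 tested voltage-gated genes fell and 16 did not pass, with a median of -0.19. Of 6 tested modifier subunits (Kcnf, Kcng, Kcns and Kcnv genes) only Kcng4 passed. Neither tested gene of the M-current family passed, Kcnq3 (-0.12) or Kcnq5 (0.02). A dimmer probe set of Kcnq5 gave 0.65 ± 0.22 (adjusted p = 0.0784).

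Inward rectifiers had 5 of 11 tested genes lower and a median of -0.38. Kcnj10, the main potassium channel of astrocytes and Bergmann glia, had 263, 211 and 279 in tumours, against 1670 and 1447 in cerebellum (-2.57 ± 0.20, adjusted p = 3.64e-06). Beside it, 8 of 11 astrocyte and Bergmann glia markers fell, while Fabp7 (0.95), Gfap (0.56) and Slc1a2 (-0.59) did not pass. The part of these markers was not tested. Kcnj16, which pairs with Kcnj10 in glia, gave -0.38 ± 0.17 (adjusted p = 0.176). The G protein-gated rectifiers, opened by inhibitory transmitter receptors, differed in call. Kcnj9 had 12.8, 13.7 and 7.05 in tumours, against 111 and 136 in cerebellum (-2.36 ± 0.17, adjusted p = 2.61e-06), and another probe set gave -0.46 ± 0.19 (adjusted p = 0.0822). Kcnj3 had 29.6, 28 and 32.3 in tumours, against 76.2 and 69.0 in cerebellum (-0.95 ± 0.15, adjusted p = 5.62e-04), and its 3 probe sets on 430B gave -1.51, -1.57 and 0.06, the last without a call. Kcnj6, the third subunit of the group, had 43.8, 67.5 and 53.2 in tumours and 49.4 and 43.0 in cerebellum. Its groups overlapped (0.18 ± 0.18, adjusted p = 0.518, 95% interval -0.22 to 0.58), and its 2 other tested probe sets did not pass either.

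Kcnj12, a strong rectifier, had 15.0, 10.7 and 22 in tumours and 37.3 and 41.6 in cerebellum (-0.81 ± 0.17, adjusted p = 0.00347). Kcnj13, a rectifier of transporting epithelia, was the weakest call, with 23.6, 27.5 and 22.9 in tumours and 39.5 and 38.8 in cerebellum (-0.44 ± 0.13, adjusted p = 0.0474). Its adjusted p was 0.113 without medulloblastoma 1, 0.0843 without medulloblastoma 2, 0.218 without cerebellum 1 and 0.208 without cerebellum 2, with fold changes from -0.49 to -0.42. It was 0.0644 after quantile normalization. Kcnj8, the pore of a metabolically gated channel of pericytes and smooth muscle, had the largest spread over tumours of the channel genes tested, as SD of log2 values, with 30.2, 8.67 and 48.5 in tumours and 15.4 and 20.3 in cerebellum (0.31 ± 0.31, adjusted p = 0.507).

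Two-pore channels, which carry background potassium current, had 4 of 11 tested genes lower and a median of -0.30. Without cerebellum 2 these were 2 genes and -0.15. Of the 4, Kcnk3, Kcnk10 and Kcnk12 passed the filter through cerebellum alone. Kcnk1 had 87.5, 138 and 111 in tumours, against 508 and 618 in cerebellum (-2.19 ± 0.23, adjusted p = 2.6e-05). Its other probe set gave -1.97. Kcnk3, an acid-sensitive channel of granule neurons, had 6.11, 7.69 and 6.57 in tumours and 43.2 and 53.1 in cerebellum (-1.49 ± 0.14, adjusted p = 1.45e-05). Kcnk10, of the mechanosensitive branch, had 11.8, 17.1 and 13.1 in tumours and 31.1 and 29.7 in cerebellum on 430A (-0.63 ± 0.14, adjusted p = 0.0055). Its 430B probe set had 26.1, 18.4 and 30.0 in tumours and 112 and 89.2 in cerebellum, a larger fall of -1.52 ± 0.18. Kcnk12 had 6.91, 9.34 and 15.0 in tumours and 20.5 and 36.2 in cerebellum (-0.74 ± 0.19, adjusted p = 0.0262). Its adjusted p was 0.303 without cerebellum 2, where the fold change was -0.48, 0.0842 without medulloblastoma 1 (-0.64) and 0.0879 without medulloblastoma 2 (-0.71).

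The close relative of Kcnk10, Kcnk2, had 62.5, 97.7 and 74.5 in tumours and 56.7 and 59.3 in cerebellum (0.33 ± 0.19, adjusted p = 0.233, 95% interval -0.10 to 0.76). All tumour values lay above both cerebellum values, without a call. The same held for Kcnk15, with 81.2, 77.2 and 85.1 in tumours and 58.3 and 62.9 in cerebellum (0.34 ± 0.16, adjusted p = 0.197), and Kcnk7 (0.38 ± 0.17, adjusted p = 0.114).

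Calcium-activated genes had 4 of 8 tested genes lower and a median of -0.62. This family was counted with the Kcnmb beta subunits, which are not among the auxiliary genes here, and with the Kcnt genes. Kcnma1, the pore of the large-conductance channel that ends spikes, had 22.1, 22.4 and 15.3 in tumours, against 125 and 163 in cerebellum (-2.15 ± 0.18, adjusted p = 5.54e-06). Its 3 other tested probe sets were lower as well, at -1.75 on 430A and -1.53 and -0.78 on 430B. Of its beta subunits, the neuronal Kcnmb4 had 62.2, 75.7 and 68.3 in tumours and 118 and 227 in cerebellum (-1.09 ± 0.25, adjusted p = 0.00559). Its cerebellum samples lay apart, and without cerebellum 2 it had -0.66 with adjusted p = 0.104. Kcnmb1 (-0.05) and Kcnmb2 (-0.14) did not pass. Kcnn2, a small-conductance channel that slows firing after spikes, had 13.0, 11.8 and 17.2 in tumours, against 70.7 and 69.0 in cerebellum (-1.52 ± 0.15, adjusted p = 1.72e-05). Kcnn1 gave -0.14 ± 0.16 (adjusted p = 0.575), and Kcnn3 and Kcnn4 were left out by the filter. Kcnt1, a relative gated by sodium, had 21.2, 32.6 and 18.9 in tumours and 64.3 and 78.0 in cerebellum (-1.13 ± 0.18, adjusted p = 0.00148), and -1.90 and -1.50 from 2 other probe sets. Its relative Kcnt2 had 30.0, 19.2 and 17.6 in tumours and 13.0 and 14.3 in cerebellum (0.36 ± 0.17, adjusted p = 0.191).

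**Figure D2:**
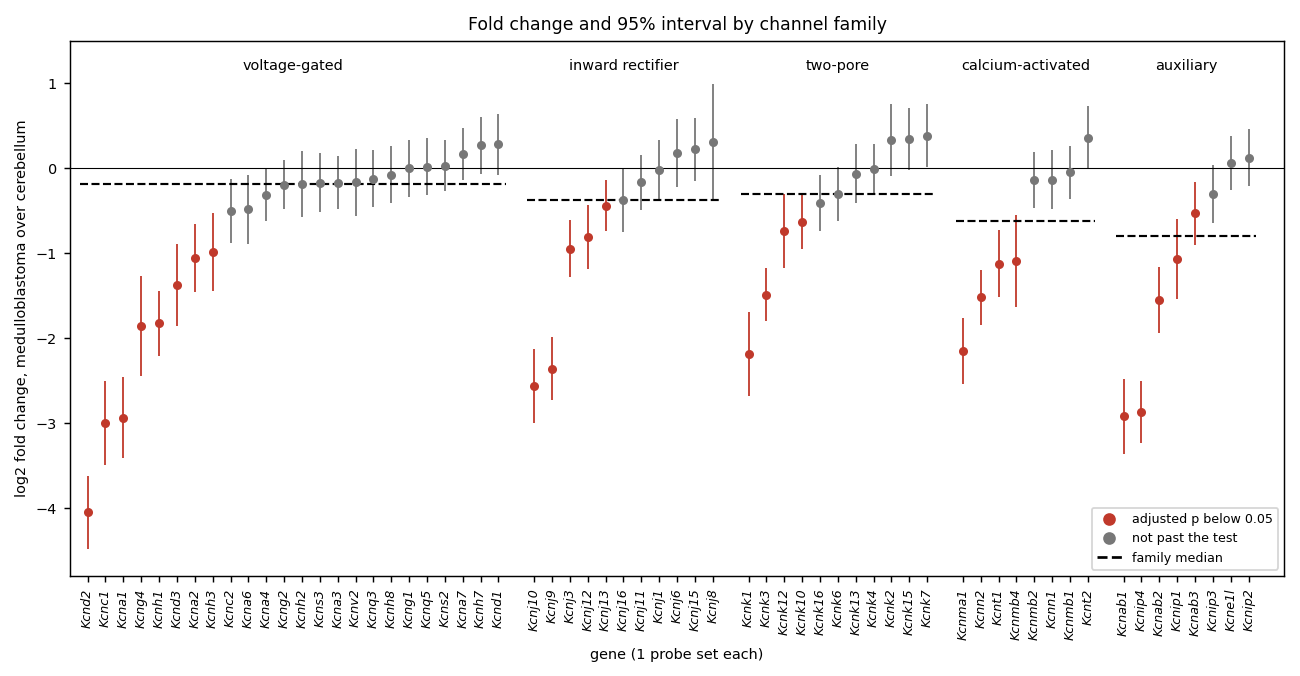
Log2 fold change of medulloblastoma over cerebellum for the tested genes of the 5 families, 1 probe set per gene, with the 95% interval from limma; red points have an adjusted p below 0.05 and dashed lines are family medians. Each family runs from clear falls to values near 0, and no red point lies above 0.

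Set side by side, the families each held both lower genes and genes not past the test. The share of tested genes that fell was 33.3% in voltage-gated, 45.5% in inward rectifier, 36.4% in two-pore, 50% in calcium-activated and 62.5% in auxiliary genes, against 16% of all genes. None was higher in any of these families, and at an unadjusted p under 0.05 the higher genes numbered 1 in the two-pore family and 0 in the other 4. The families are small and no difference between them was tested. The shares also depend on the filter, since 11 of the 26 lower genes passed it through cerebellum alone. Those 11 include Kcnab2, Kcnab3 and Kcnip4 of the auxiliary family and are listed below. With no filter, 24 of the 84 genes were lower, and 12% of all genes. The lowest value was -4.05 in the voltage-gated, -2.57 in the inward rectifier, -2.19 in the two-pore, -2.15 in the calcium-activated and -2.92 in the auxiliary family. Groups of arrays did not overlap, with all tumours lower, in 35 of the 64 genes, against 30.1% of all genes, and with all tumours higher in 7, against 22.2%.

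**Figure D3:**
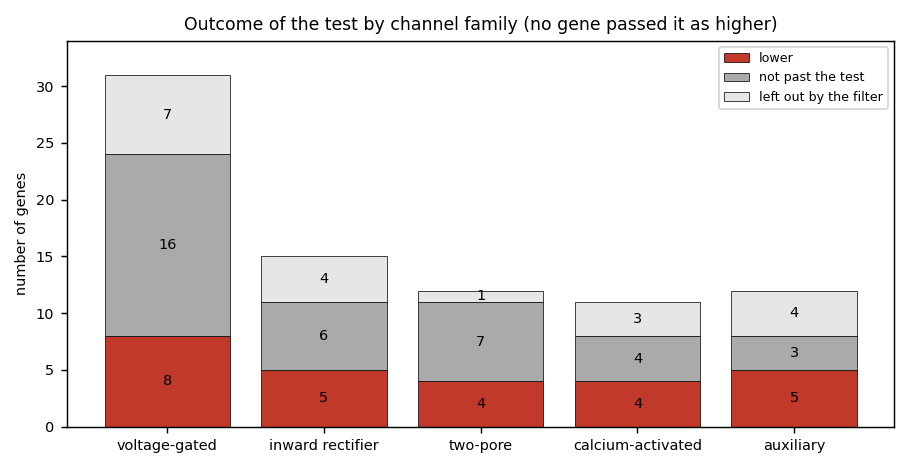
Number of genes in each family by outcome of the test, lower in medulloblastoma (red), not past the test (grey) or left out by the filter on low values (light). Lower genes number 8, 5, 4, 4 and 5 from left to right; the 3 noncoding RNAs are not drawn.

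The filter left out 20 of the 84 genes, 3 of them calcium-activated, 7 voltage-gated, 4 inward rectifiers, 1 two-pore gene, 4 auxiliary genes and 1 noncoding RNA. They were Kcna5, Kcnc4, Kcnf1, Kcnh5, Kcnq1, Kcns1, Kcnv1, Kcnj2, Kcnj4, Kcnj5, Kcnj14, Kcnk5, Kcnn3, Kcnn4, Kcnu1, Kcnmb4os1 and the 4 Kcne genes. No array gave any of their 28 probe sets an intensity above 25.4. Of the 64 genes that passed, 12 had a tumour mean under the filter level and passed through cerebellum alone, and 11 of those are among the 26 lower genes (Kcna2, Kcnh1, Kcnj9, Kcnj12, Kcnk3, Kcnk10, Kcnk12, Kcnn2, Kcnab2, Kcnab3 and Kcnip4). Another 4 passed through the tumours alone, and none of these was called. The 38 genes that passed the filter but not the test had log2 fold changes between -0.50 (Kcnc2) and 0.84 (Kcnq1ot1). In 37 of them the 95% interval stayed within 1 unit of 0 on the log2(intensity + 16) scale, which understates the change of dim probe sets. Kcnc2, for one, averaged 8.77 in tumours and 19.1 in cerebellum, so its intensity in tumours was 46.0% of that in cerebellum. The members not named so far are given by the probe set that represents each. Values ran from -0.19 to 0.27 in Kcng1, Kcng2, Kcnh2, Kcnh7, Kcns2, Kcns3 and Kcnv2, and from -0.17 to 0.22 in Kcnj1, Kcnj11 and Kcnj15. Brighter probe sets on 430B gave 0.59 in Kcns2 and 0.30 ± 0.22 in Kcnj11, without a call. Kcnk4, Kcnk6, Kcnk13 and Kcnk16 lay from -0.41 to -0.01, and Kcnmb4os2 at 0.04. Among the brighter ones, Kcnh8 had 45.1, 52.2 and 45.2 in tumours and 54.1 and 48.0 in cerebellum, with an interval from -0.41 to 0.26.

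Probe sets of a gene did not always give the same value. On 430A, 28 of 57 tested channel probe sets were lower, where 19.0% of all probe sets were, and none higher, where 13.1% were (limma; 1 was higher at an unadjusted p under 0.05). On 430B, 22 of 61 were lower, where 9.77% of all were, and 2 were higher, where 7.85% were. At an unadjusted p under 0.05, 6 were higher on 430B, among them 1 of Kcnq5 (0.65). The 2 called higher belong to Kcnq1ot1, a noncoding RNA from the imprinted Kcnq1 locus. Of its 6 tested probe sets 2 were higher (0.68 and 0.96), 1 was lower (-0.96) and 3 did not pass. The brightest of them had 173, 238 and 334 in tumours and 124 and 130 in cerebellum (0.84 ± 0.28, adjusted p = 0.0647), and its adjusted p was 0.0232 without medulloblastoma 1. Without medulloblastoma 3 it was 0.0168, with a fold change of 0.62, and with the replicate number as a block 0.00409. The same probe set stayed without a call when medulloblastoma 2, cerebellum 1 or cerebellum 2 was left out.

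Of 29 genes with several tested probe sets, 8 were lower in each of those, 11 in none, and 10 differed in call. The widest gap was in Kcnc1, where 1 probe set of 430B read 16.1, 23.4 and 22 in tumours and 432 and 518 in cerebellum (-3.75) and another read 33.3, 31.2 and 25.7 in tumours and 28.7 and 23.3 in cerebellum (0.13). Which transcript ends these probe sets detect is not given in the sources used here. Of 14 genes with tested probe sets on both chips, 8 were lower on both, namely Kcna1, Kcna2, Kcnc1, Kcnh1, Kcnip4, Kcnj3, Kcnk10 and Kcnma1. Kcnh3 was lower on 430A only, Kcna6 on 430B only, and Kcnd1, Kcnip2, Kcnj11 and Kcns2 on neither.

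**Figure D4:**
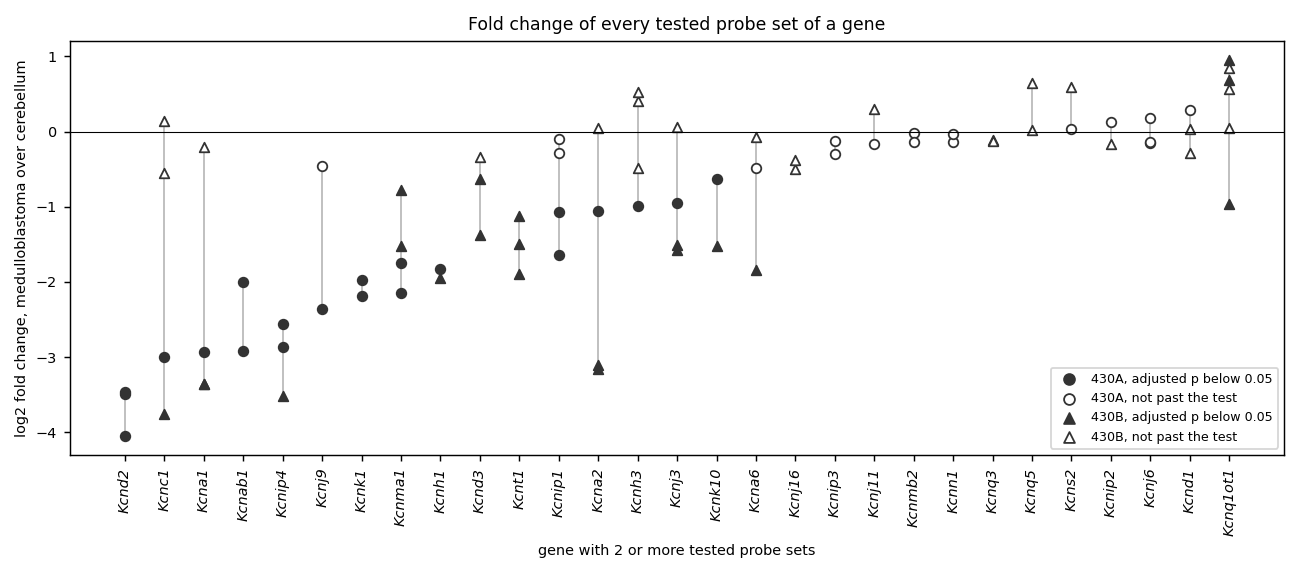
Log2 fold change of medulloblastoma over cerebellum for every tested probe set of the 29 genes that have 2 or more, circles on 430A and triangles on 430B, filled where the adjusted p is below 0.05. Kcnc1 spans -3.75 to 0.13 and Kcnq1ot1 has filled symbols on both sides of 0, whereas the probe sets of Kcnd2 lie between -4.05 and -3.47.

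Among proteins that assemble, anchor or regulate potassium channels, 7 of 19 tested genes fell and 1 rose, where 16% of all genes fell and 10.7% rose, and the median was -0.22. After Dpp10 (-3.02 ± 0.16) and Dpp6 (-2.87 ± 0.17) came Lgi1, a secreted partner of axonal Kv channels, with 11.9, 5.76 and 12.4 in tumours and 125 and 115 in cerebellum (-2.40 ± 0.17, adjusted p = 2.04e-06). Dlg1, a scaffold protein, had 63.1, 76.2 and 77.4 in tumours and 437 and 373 in cerebellum (-2.25 ± 0.20, adjusted p = 8.46e-06). The 1 gene that rose was Nedd4l, a ubiquitin ligase that removes channels from the membrane, at 77.5, 146 and 86.4 in tumours and 48.1 and 62.9 in cerebellum (0.70 ± 0.24, adjusted p = 0.0467). It was chosen for mention after its value was seen. Sptbn4 (-1.66), Cntnap2 (-0.61) and Adam22 (-0.50) were the other lower ones. Of the 7, Dpp6, Lgi1 and Sptbn4 had tumour means of 15.7, 10.0 and 15.7, under the 430A filter level of 15.9. They passed the filter through cerebellum alone, so the share of lower partners also depends on the filter. Neither tested gene of the related pacemaker channels, Hcn2 (0.08) or Hcn3 (0.14), passed.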

How the data were processed

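RNA of 3 medulloblastomas and 2 cerebellum samples was measured on the Affymetrix 430A and 430B chips. Per the labels' protocols, total RNA was taken up in Trizol and labelled as biotinylated cRNA. The authors deposited 1 linear intensity for each probe set and array; the sources used here name no software, scaling or background treatment. Per array, 298 to 477 probe sets have the value 1 exactly. No measure of detection was used, and the number of arrays limits the precision.

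Titles gave each sample's group and number. Intensities were turned into log2(value + 16), so fold changes are on that scale and understate those of low probe sets. Nothing more was normalized. Probe sets in the lowest 25% by mean were left out, which kept 16969 on 430A and 16883 on 430B. Each chip was fitted alone with limma 3.58.1 in R 4.3.3 (lmFit, eBayes with trend, two-sided, Benjamini-Hochberg over the chip), calls at adjusted p below 0.05. The fit was also run on simulated data, with an outcome not given here. Changes were planted there only in probe sets brighter than those near the filter, so dim ones were not covered.

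Symbols are those of the platform annotation, updated by Entrez identifier. A gene is represented by 1 tested probe set, from 430A where it has one, avoiding the suffixes _s_at and _x_at, and otherwise the brightest. Families were assigned by symbol. The members, families and lists were chosen with earlier results of these data known. Values by array are given for up to 5 lower and 5 higher genes of each family by fold change, for up to 10 genes whose probe sets differ in call, for the 6 brightest genes not past the test, and for up to 4 partner genes. Others were added where a family description needed them (Kcnd1, Kcnj8, Kcnk7, Kcnt2 and the members given by fold change alone), after their values were seen. Sequences are RefSeq's, GRCm38.p6; the arrays name no build. Alternatives changed pseudocount, normalization, filter, trend, threshold, probe set, block and replicates; 1 set, leaving out tumours as matched between the chips, was chosen after seeing the data. Figures were drawn with matplotlib 3.10.9.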

Additional observations from a re-analysis of the deposited data

How the results depend on the processing

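Among the 33 genes chosen by rule for values by array, only Kcnh3 turned its sign with a call in either reading. It was at 0.53 when each gene was read by its brightest probe set. Other genes and turns without a call were not counted, such as Kcnj11, at -0.17 on 430A and 0.30 by its brightest probe set. Kcnd3 was -0.15 with no filter, where a dim 430A probe set represents it. Over the fits that leave out 1 replicate number of a tissue, or 1 tumour as matched between the chips, 20 to 29 channel genes were lower and 0 to 2 higher, against 9.38% to 19.2% and 5.95% to 15.9% of all genes; the lowest count was without cerebellum 2, at 20 of 62 tested genes and 9.38% of all genes. Lower genes then numbered 7 to 10 in the voltage-gated, 4 to 5 in the inward rectifier, 2 to 5 in the two-pore, 3 to 4 in the calcium-activated and 4 to 5 in the auxiliary family. Higher genes numbered 0 to 1 in the inward rectifier and two-pore families and 0 in the other 3. Family medians lay from -0.28 to -0.22, -0.45 to -0.25, -0.38 to -0.15, -0.68 to -0.45 and -1.03 to -0.67 in the same order. Lower probe sets numbered 23 to 30 on 430A and 17 to 25 on 430B, against 11.6% to 22.1% and 5.43% to 13.4% of all probe sets. Higher ones numbered 0 to 1 on 430A and 0 to 7 on 430B, against 7.57% to 16.5% and 3.04% to 15.4%.

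The medians moved with the scale and the filter. With a pseudocount of 1 they were -0.31 in voltage-gated, -0.52 in inward rectifier and -1.12 in auxiliary genes. With 64 they were -0.0877, -0.20, -0.16, -0.34 and -0.48 in the order above. With no filter, inward rectifier, two-pore, calcium-activated and auxiliary genes had -0.16, -0.18, -0.14 and -0.18, with 12% of all genes lower. With a filter of 50%, voltage-gated, calcium-activated and auxiliary genes had -1.18, -1.13 and -1.97, with 2 two-pore and 3 auxiliary genes lower (19.7% of all genes). Lower probe sets on 430A were then 18 of 25 (22.9% of all) and higher ones on 430B 1 of 39 (10.6% of all). Genes of 430A only had -0.48 in voltage-gated, -0.49 in inward rectifier and -0.063 in two-pore genes. The inward rectifier median was -0.34 with equal array medians, and the auxiliary median -0.73 after quantile normalization. Higher probe sets on 430B numbered 4 of 61 after quantile normalization (9.87% of all) and 4 without the trend (7.78%), where 1 gene, Kcnq1ot1, was higher (10.8% of all genes), and 0 with a log2 limit of 1 (3.62%). That limit left 2 inward rectifier and 2 two-pore genes lower (8.41% of all genes).

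The labels do not say that a replicate number joins a tumour and a cerebellum sample, and only 2 numbers are shared. Deviations of same-numbered samples correlated at 0.0778 on 430A and 0.0765 on 430B. With the replicate number as a block, which leaves medulloblastoma 3 out of the contrast, 28 of 64 genes were lower (18.4% of all genes) and 1 was higher (14.5%), and 9 of 61 probe sets of 430B were higher (16.7% of all there). Among the 33 genes chosen by rule, the block made calls of Kcna6 and Kcnq1ot1 and ended that of Kcnab3. The inward rectifier and auxiliary medians were -0.34 and -0.67. The cause of these shifts was not tested. The lowest tested levels were 15.9 on 430A and 11.3 on 430B, where the pseudocount shrinks fold changes.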

Other observations

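The genes that fell were spread over the genome, on 15 of the 19 chromosomes that hold a member. Chromosome 1 held 4 of them among 8 members (Kcnh1, Kcnj9, Kcnj10 and Kcnj13), and chromosome 7 held 1 among 9 (Kcnc1).

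Among the 21 lower genes represented on 430A, medulloblastoma 2 had the highest tumour value in 11 and the other two tumours in 5 each. Cerebellum 2 was above cerebellum 1 in 17 of these 21. The matching shares over all genes of the chip were not computed, so these counts are not shown to be particular to channel genes.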
